A study of Caenorhabditis elegans with 4 samples.

Results

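The genes of the CCR4-NOT deadenylase complex of Caenorhabditis elegans were examined for binding of LIN-15B in whole L4 larvae. The complex was represented by 8 listed genes, ntl-2, ntl-3, ntl-4, ntl-9, ntl-11, let-711, ccf-1 and ccr-4, out of 19985 protein-coding genes in the annotation, and all 8 were found by their symbols. They were listed because of their LIN-15B peaks, with ntl-11 picked out by its score, rank and replicate agreement, so those values are given as a description with no test. Each peak that lay inside a gene or within 1000 bp of it was assigned to that gene. The data were chromatin immunoprecipitation followed by sequencing of strain OP184, genotype unc-119(tm4063) III; wgIs184, in which the wgIs184 transgene carries LIN-15B fused to green fluorescent protein. Larvae of both sexes were pooled, their age is labelled unknown, and the sample labels give lin-15B as the antibody target. The sample descriptions name the target as the fusion, eGFP-lin-15B. All 4 samples formed 1 group with 3 biological replicates, of which replicate 3 consisted of 2 technical libraries with 1 shared peak list. There was no second genotype, stage or treatment, and whole larvae mix all cell types, so the cells in which a site was bound cannot be told apart.

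CCR4-NOT shortens the poly(A) tails of messenger RNAs, which silences them and starts their decay. LET-711 (also called NTL-1, the counterpart of human CNOT1) is the scaffold. NTL-2 and NTL-3 form the NOT module, NTL-9 and NTL-11 correspond to CNOT9 and CNOT11, and NTL-4 corresponds to the ubiquitin ligase CNOT4. CCF-1 and CCR-4 are the deadenylases. LIN-15B, a THAP-domain protein of the nucleus, belongs to the synMuv B genes and is known for keeping germline genes silent in the soma.

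The sites that carry the binding at these genes were read from the WBcel235 assembly, whose coordinates are those of the ce11 lists. Shown are both ntl-11 sites and the ntl-2 site, the sites at member genes that passed the authors' reproducibility threshold, and the ccf-1 site, which lies similarly close to a start but did not pass. Each is given 5′ to 3′ on the strand of its gene (minus in every case). Capitals mark CTGCGTCT, CGCGC and GAGAGA, 3 of the 9 motifs searched on both strands. The ntl-11 proximal site is chrIV:15471540-15471718, the ntl-11 distal site chrIV:15472490-15472690, the ntl-2 site chrII:4376753-4376953 and the ccf-1 site chrIII:11920255-11920455. All 4 lie between genes and overlap 0 protein-coding genes.
ntl-11 proximal: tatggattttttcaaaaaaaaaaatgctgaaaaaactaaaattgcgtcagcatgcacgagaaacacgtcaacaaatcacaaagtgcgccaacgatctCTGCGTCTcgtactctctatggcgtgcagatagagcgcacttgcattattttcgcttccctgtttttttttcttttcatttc
ntl-11 distal: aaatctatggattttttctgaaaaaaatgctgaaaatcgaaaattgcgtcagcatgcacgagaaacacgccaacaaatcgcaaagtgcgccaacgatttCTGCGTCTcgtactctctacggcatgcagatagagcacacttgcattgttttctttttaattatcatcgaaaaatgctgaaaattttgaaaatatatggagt
ntl-2: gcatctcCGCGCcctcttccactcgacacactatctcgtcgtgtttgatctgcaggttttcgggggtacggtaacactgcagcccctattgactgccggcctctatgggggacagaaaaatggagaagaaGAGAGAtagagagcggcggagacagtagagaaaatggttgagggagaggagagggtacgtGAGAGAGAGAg
ccf-1: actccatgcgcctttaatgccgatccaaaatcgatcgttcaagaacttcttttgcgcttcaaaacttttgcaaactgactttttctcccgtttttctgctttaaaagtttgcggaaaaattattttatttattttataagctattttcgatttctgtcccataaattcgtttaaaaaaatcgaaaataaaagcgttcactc

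By score, strong LIN-15B peaks were present at 2 of the 8 complex genes, ntl-11 and ntl-2, and the others had weak peaks. The optimal list, the peaks that passed the authors' test of reproducibility between replicates, held 383 peaks, and 2 of 8 members had one, against 3.31% of all protein-coding genes. The pooled list held 8636 peaks called on all replicates together, and 8 of 8 members had one, against 39.1% of all genes. Each replicate list held 30000 peaks and reached far into background, so that 8 of 8 members had a peak in every replicate, as did 77.7%, 78.4% and 76.3% of all genes in replicates 1, 2 and 3. The 383 highest-scoring peaks of each replicate were therefore treated as its top-ranked peaks. Members with a top-ranked peak were ntl-11, ntl-2 and ccr-4 in replicate 1, ntl-11 and ntl-2 in replicate 2, and ntl-11, ntl-2 and let-711 in replicate 3. That is a mean of 2.67 ± 0.577 members (SD, n = 3 replicates) of 8, against 3.13%, 3.2% and 3.12% of all genes. Members are long genes with more room for a peak, at a median of 7.46 kb against 2.03 kb over all protein-coding genes, and the part of length in these counts was not tested. No read counts are given, so the depth behind each score is unknown, and scores were compared only within a list.

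**Figure D1:**
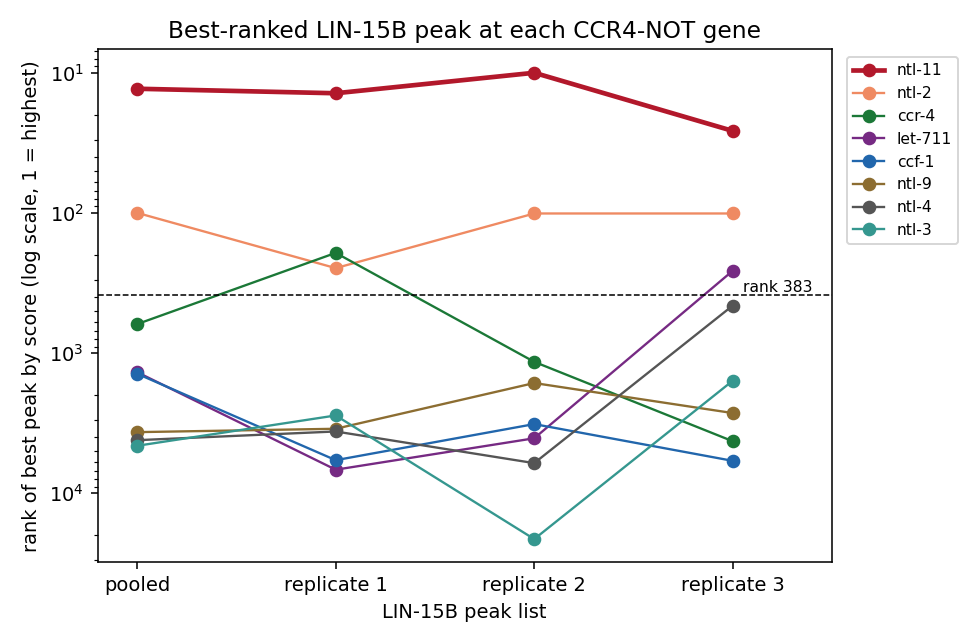
Rank of the best LIN-15B peak at each CCR4-NOT gene in the pooled list and in the lists of replicates 1 to 3; the vertical axis is logarithmic with rank 1 at the top, and the dashed line marks rank 383. The ntl-11 line lies at ranks 10 to 26 in the replicates, ntl-2 stays above the dashed line throughout, and the other genes cross each other below or around it.

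The strongest LIN-15B peak at a complex gene lay just upstream of ntl-11, the gene for the CNOT11 counterpart. The gene (WBGene00013530) spans chrIV:15455127-15471495 on the minus strand, is 16.4 kb long and has 7 annotated transcripts. Its proximal peak had a score of 165.3 in the optimal and pooled lists, rank 13 in both, and its summit lay 127 bp upstream of the annotated start, between genes. Scores at this summit were 51.9 in replicate 1, 57.8 in replicate 2 and 54.7 in replicate 3, at ranks 14, 10 and 26. The rank was in the first 26 in every replicate, a mean of 16.7 ± 8.33 (SD, n = 3). Summits lay 116, 118 and 150 bp upstream in replicates 1, 2 and 3, with an SD of 19.1 bp, so the 3 lists placed the site within 34 bp. When genes were ordered by their worst replicate rank, ntl-11 was in place 22 of 19985.

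The distal peak lay 1095 bp upstream of ntl-11 and was also optimal, with a score of 92.4 and rank 43. Its scores were 30.7, 21.5 and 35.8 in replicates 1, 2 and 3, at ranks 38, 105 and 53, all top-ranked. Its summit varied by 16.4 bp (SD, n = 3). This peak lay only 219 bp upstream of the divergent neighbour Y73F8A.27, named fdx-2 in RefSeq and described there as a protein with a ferredoxin-type domain. The space between the starts of ntl-11 and Y73F8A.27 is 1313 bp. The edge of the distal peak lay 925 bp from ntl-11, inside the 1000-bp limit, although its summit lay outside it; the next pooled peak outside the limit was 2.59 kb from the gene with a score of 11.4. The proximal peak scored higher than the distal one in every replicate, by a factor of 1.69, 2.68 and 1.53 in replicates 1, 2 and 3 (mean 1.97 ± 0.625, SD, n = 3).

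Both ntl-11 peaks lay on copies of 1 sequence, repeated in the same orientation. Within the printed sites, 136 of 147 aligned bases were identical (92.5%), with 11 differences and a gap of 3 bases in the distal copy. Counted from the ntl-11 start, the aligned part of the proximal copy ran from -223 to -74 bp and that of the distal copy from -1190 to -1044 bp. The summits of the pooled peaks lay 968 bp apart. The bound at -223 bp is the edge of the printed site and not the end of the copy. With blastn the distal site matched chrIV:15471569-15471723, past that edge, with 90.3% identity over 155 aligned bases. CTGCGTCT stood at the same place in both copies, its first base 1 bp downstream of the proximal summit and 1 bp upstream of the distal summit. Shorter matches to the distal site, found with blastn at an expectation of at most 1e-05, did not hold CTGCGTCT. At chrV:8570042-8570081 a match of 40 bases with 95.0% identity overlapped no pooled peak and no peak of replicates 1 and 2, and a replicate 3 peak of rank 4824. The match at chrIV:15472003-15472049, between the copies, had 87.2% identity over 47 aligned bases and no peak in any list. At chrII:14251868-14251923 the identity was 84.2% over 57 aligned bases, and the best overlapping peaks had rank 2148 in the pooled list and 1634, 25893 and 1099 in replicates 1, 2 and 3. How reads that match more than 1 copy were placed is not given in the sources used here, and its part in either peak was not tested. Of the 365 nuclear optimal peaks, 14 (3.84%) had another optimal summit within 1000 bp, and 42 of the 661 genes with an optimal peak had more than 1.

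**Figure D2:**
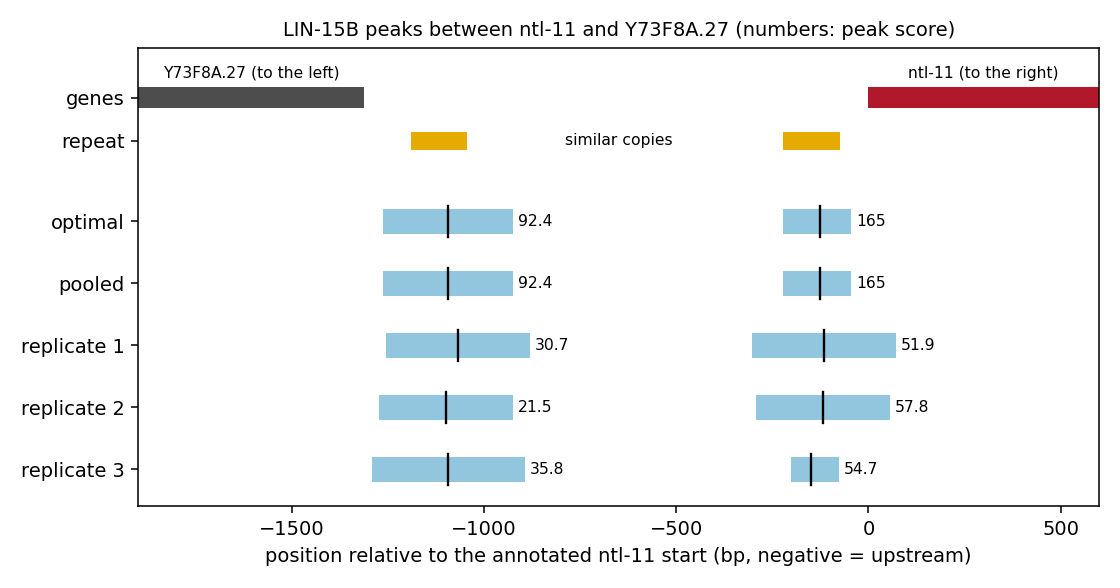
LIN-15B peaks between ntl-11 and Y73F8A.27, by position in bp from the annotated ntl-11 start; blue bars are peaks, black ticks their summits, numbers their scores, yellow bars the similar copies, and red and grey bars the genes. Every list has 1 peak over each copy, and the score is higher over the copy next to ntl-11 in all 5 lists.

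Inside ntl-11 and beyond its end LIN-15B peaks were weak. The 4 remaining pooled peaks had scores of 11.4 to 13.8 and ranks of 3995 to 8587; 3 summits lay in introns and 1 lay 738 bp past the gene end. Each was covered by a peak in 1 or 2 of the 3 replicates. The best replicate rank among them was 748, in replicate 1, so none was top-ranked.

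NTL-2, a NOT-module subunit, was encoded by the only other member with an optimal peak. The gene ntl-2 (WBGene00003825) spans chrII:4372739-4376465 on the minus strand and is 3.7 kb long with 12 annotated transcripts. Its peak had a score of 60.97 at rank 100, with the summit 388 bp upstream of the start and no other gene start within 1000 bp. Scores were 12.1, 22.4 and 25.4 in replicates 1, 2 and 3, at ranks 248, 101 and 101. The summits lay 363, 427 and 386 bp upstream, an SD of 32.4 bp, and ntl-2 was in place 191 of 19985 by worst replicate rank. A further pooled peak 901 bp upstream had a score of 19.8 at rank 966 and was covered in all 3 replicates, but only at ranks 11553, 2413 and 21480. On ranks, the ntl-2 peak at 101 to 248 did not overlap the proximal ntl-11 peak at 10 to 26. It did overlap the distal ntl-11 peak, which ranked 38, 105 and 53 in replicates 1, 2 and 3.

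The scaffold gene let-711 (WBGene00002845, chrIII:6946718-6958894, plus strand) had no peak near its start in the pooled list. Its best pooled peak had a score of 17.9 at rank 1372 and lay 34 bp past the gene end. That summit was covered at rank 259 in replicate 3, score 14.99, and at rank 7959 in replicate 2, and by no peak in replicate 1. A pooled peak in a coding exon, score 13.9, was covered in replicates 1 and 2 only, at ranks 6812 and 4064. The top-ranked call for let-711 therefore came from replicate 3 alone.

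For the NOT-module gene ntl-3 (WBGene00003826, chrIII:11831012-11846465, minus strand) the 1 pooled peak was intronic, 14004 bp into the gene, with a score of 13.3 at rank 4597. It was covered in all 3 replicates at ranks 2793, 27018 and 23671. The CNOT9 gene ntl-9 (WBGene00016139, chrIII:4944513-4947317, plus strand) had 1 pooled peak, score 14.0 at rank 3674, which lay 492 bp past the gene end and 324 bp upstream of the non-coding RNA gene C26E6.15. It was covered at ranks 3476 and 12820 in replicates 1 and 2 and not in replicate 3. The CNOT4 gene ntl-4 (WBGene00003827, chrIV:7910575-7915189, plus strand) had 3 pooled peaks with scores of 11.8 to 13.7. The strongest, rank 4193, lay 742 bp upstream of ntl-4 in an intron of npp-27, a nuclear pore gene, and was covered only in replicate 3, at rank 2377. The other 2 lay in coding exons of ntl-4, and the one 2048 bp into the gene reached rank 459 in replicate 3, the member peak closest below the top-ranked set, without a peak over it in replicates 1 and 2. None of these 3 genes had a top-ranked peak in any replicate.

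The deadenylase gene ccf-1 (WBGene00000369, chrIII:11918828-11920237, minus strand) had its pooled summit 118 bp upstream of the start, close to where ntl-11 had its own, but with a score of 17.7 at rank 1408. The site was covered in all 3 replicates, at ranks 5825, 3219 and 8406 and scores of 5.28, 8.28 and 4.54. It lay between ccf-1 and trap-4, a translocon-associated protein gene whose start was 380 bp away. The other deadenylase gene, ccr-4 (WBGene00000376, chrIV:12361542-12371852, plus strand), had the highest score outside the optimal list, 23.1 at rank 622, where the lowest optimal score was 28.9. This peak lay 198 bp past the ccr-4 end and 203 bp upstream of wdr-46, which encodes a WD-repeat protein. Its ranks were 193, 5923 and 4266 in replicates 1, 2 and 3, so it was top-ranked in replicate 1 alone. A pooled peak in an intron of ccr-4 had a score of 13.1 and was covered only in replicate 2, at rank 1157. Its summit lay 1228 bp into the gene. It fell between 500 bp upstream and 100 bp downstream of the start of a ccr-4 transcript, of which 6 are annotated.

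**Figure D3:**
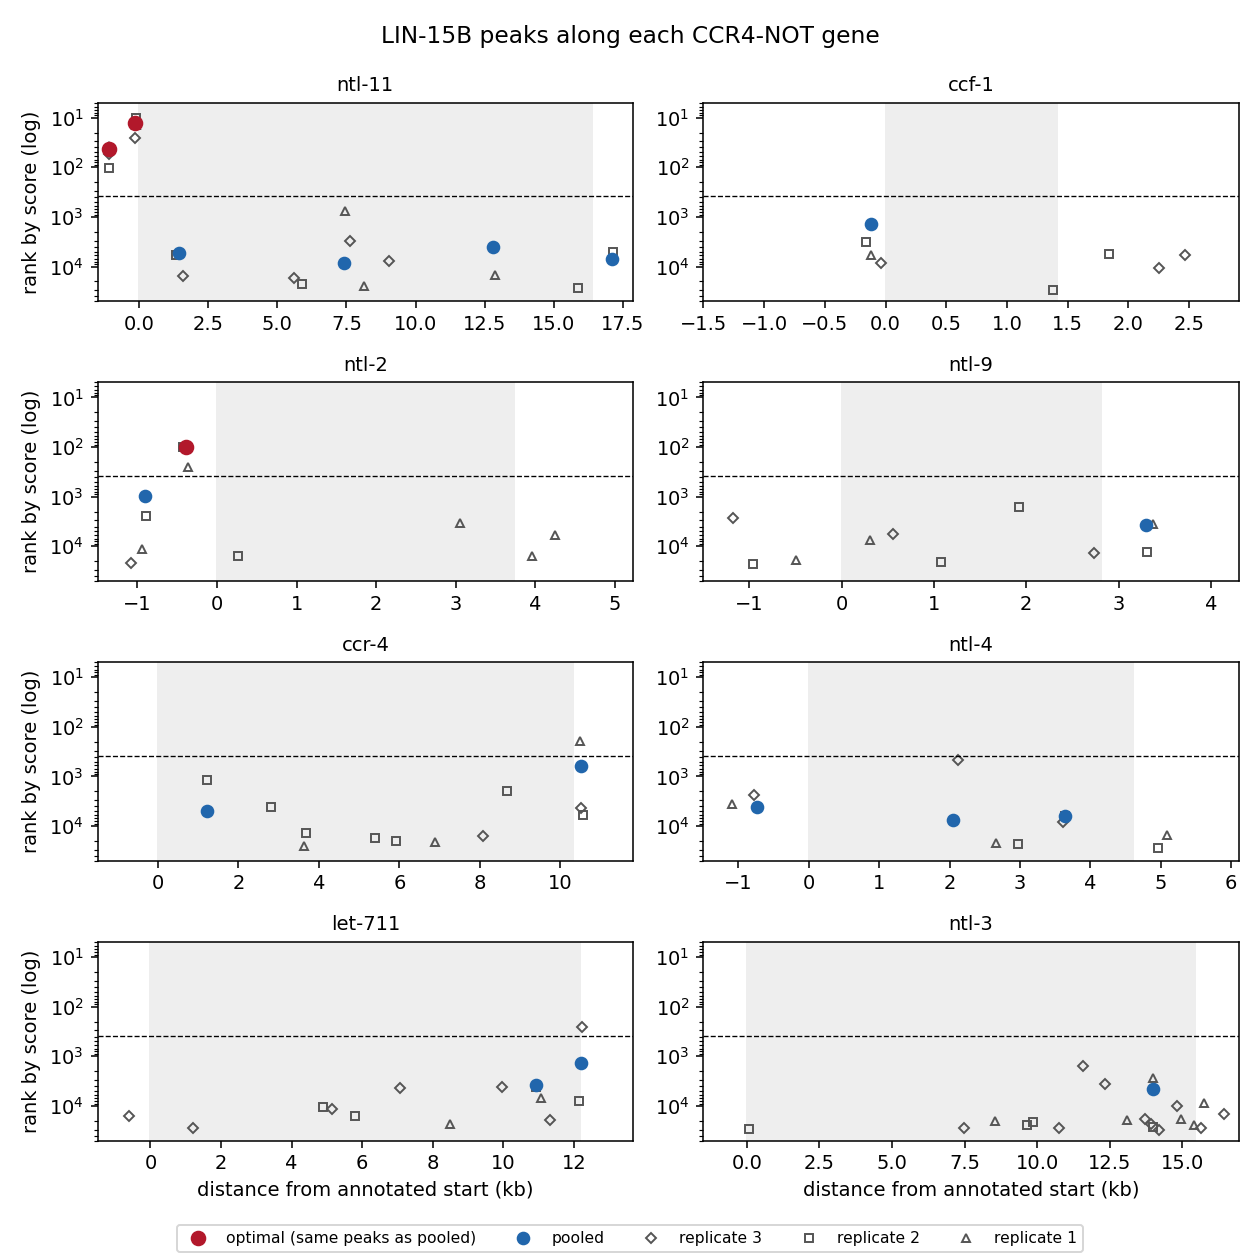
Summits of LIN-15B peaks along each CCR4-NOT gene, by distance in kb from the annotated start (grey, the gene), against rank by score on a logarithmic axis with strong peaks at the top; red, optimal; blue, pooled; open symbols, replicates; dashed line, rank 383. The sites with red points and all 3 replicates above the line are the pair upstream of ntl-11 and the one upstream of ntl-2.

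By the mean of log10 rank over replicates the order was ntl-11 (1.19 ± 0.21), ntl-2 (2.13 ± 0.23), ccr-4 (2.99 ± 0.67), let-711 (3.29 ± 0.76), ntl-4 (3.34 ± 0.59), ntl-9 (3.39 ± 0.17), ntl-3 (3.66 ± 0.59) and ccf-1 (3.68 ± 0.15; SD, n = 3 each), with the best peak of a gene taken in each list. Only for ntl-11 and ntl-2 did the best peaks of all 3 replicates lie at 1 site. A small SD at another gene is therefore not agreement on a site. The best summits of ntl-9 lay 3375 and 1917 bp downstream of the start and 1181 bp upstream of it in replicates 1, 2 and 3. For ccf-1 the best summit in replicate 3 lay 1053 bp past the gene end. From ccr-4 on, each gene differed from the next by less than the larger SD of the pair, and their replicate ranks overlapped. The ranks of ntl-2 and ccr-4 also overlapped, through replicate 1. The best rank of ntl-11 was 14, 10 and 26 in replicates 1, 2 and 3, against a median of 3476, 3219 and 1578 over the other 7 genes. The difference in log10 rank, ntl-11 minus that median, was -2.39, -2.51 and -1.78, a mean of -2.23 ± 0.39 (SD, n = 3). The closest of the other genes ranked 193, 101 and 101.

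The members together had 18 pooled peaks, of which 3 were optimal, against 383 of 8636 in the whole pooled list. Those 3 were covered and top-ranked in all 3 replicates; among all nuclear optimal peaks 92.9% were covered in all 3 and 35.6% were top-ranked in all 3. Of the 15 other member peaks, with scores of 11.4 to 23.1, 4 were covered in all 3 replicates, against 17.2% of the 8253 other nuclear pooled peaks. Of the 18 summits, 9 lay between genes, 6 in introns and 3 in coding exons. The same split over all pooled peaks is not given here, so this is a description only. The replicate lists held 98 peaks at the members, and 11 were top-ranked, 6 at ntl-11, 3 at ntl-2 and 1 each at ccr-4 and let-711. By definition 383 of the 30000 peaks of each replicate list are top-ranked. At 10 of the 18 sites blastn found no other match in the genome, the ntl-2 and ccf-1 sites among them. The share over all pooled peaks is not given here. The largest numbers of matches, 736 and 161, were at intronic sites of ntl-11 and ccr-4.

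**Figure D4:**
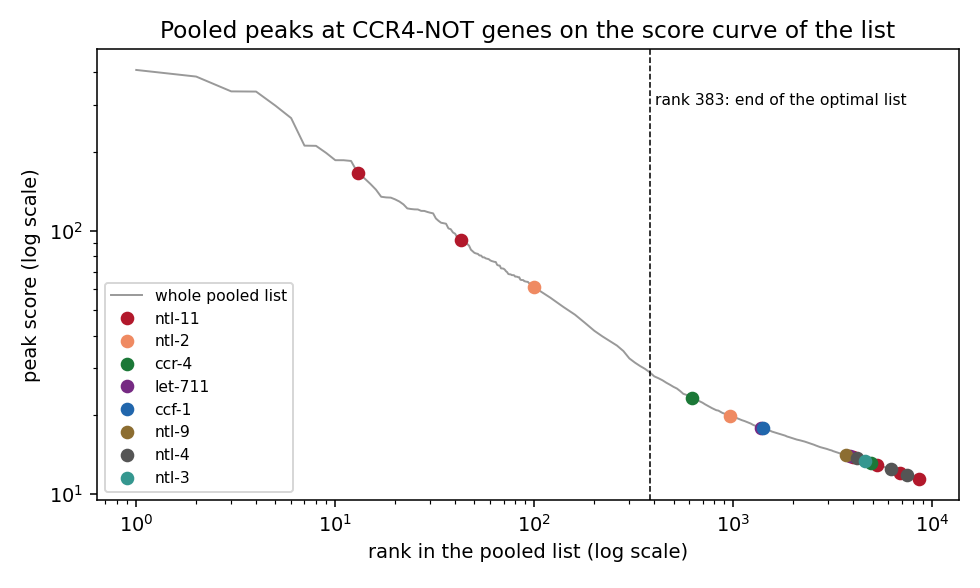
Score against rank for the pooled LIN-15B peaks, both axes logarithmic; the grey line is the pooled list, coloured points are the 18 peaks at CCR4-NOT genes, and the dashed line is the end of the optimal list. The 2 ntl-11 points and 1 ntl-2 point lie on the steep part left of the line, and the other 15 lie right of it.

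Sequence differed between the ntl-11 and ntl-2 sites. In 100 bases centred on the summit, G+C content was 49% at each ntl-11 site and 56% at ntl-2, against a median of 48% over the nuclear optimal peaks and 36% over the other pooled peaks. In 300 bases it was 34.3% at the proximal ntl-11 site, 31.0% at the distal one and 54.3% at ntl-2, against a median of 37.7% over the optimal and 35.7% over the other pooled windows. At that width both ntl-11 sites were below either median, and ntl-2 was higher than 97.0% of optimal windows. CTGCGTCT, present in both ntl-11 sites, was found in 9.04% of the optimal and 1.51% of the other pooled 100-base windows, and in no other member site. The ntl-2 site held GAGAGA in the 100-base window, a motif of 15.1% of optimal and 7.61% of other pooled windows. Its 300-base window also held CGCGC, found in 54.2% of optimal and 13.8% of other pooled windows of that length. CGCGC was also in the 300-base windows of 2 weak sites. These were the let-711 site past the gene end and the ntl-4 site 742 bp upstream. In 100 bases that let-711 site was the only member site with CGCGC, and the ntl-2 site lacked it. At that width it was in 40% of optimal and 5.88% of other pooled windows. At the ccf-1 site the 100-base window had 28% G+C and held TTTGAA and TATAAA. At that width both were less frequent in optimal than in other pooled windows, TTTGAA at 19.5% against 27.3% and TATAAA at 4.66% against 11.2%. In 300 bases TTTGAA was at 64.1% against 60.9% and TATAAA at 27.1% against 31.0%. The 300-base ccf-1 window also held GAGAGA, at 27.9% against 19.9%, and TTTTTT, at 81.1% against 73.1%. TTTGAA and TTTTTT do not set the ccf-1 site apart at that width. Both 300-base ntl-11 windows held them too, while neither 100-base ntl-11 window did. A match is a run of letters and not a measured binding site.

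Peaks at other messenger RNA decay genes ranked below that of ntl-11. The list held 58 symbols, of which 56 were found in the annotation. It covered tail shortening, decapping, the Lsm ring, the XRN exonucleases, the exosome, nonsense-mediated decay, microRNA silencing and tail-length regulators. An optimal peak lay inside or within 1000 bp of 6 of 56 (10.7%), against 3.31% of all genes, and a pooled peak at 30 of 56 (53.6%), against 39.1%. Top-ranked peaks were at 4, 5 and 2 of the 56 in replicates 1, 2 and 3 (mean 3.67 ± 1.53, SD, n = 3). These are 7.14%, 8.93% and 3.57% of the list, against 3.13%, 3.2% and 3.12% of all genes, so the share in replicate 3 was near the background. The 6 were cgh-1 (score 64.9, rank 88), the DDX6-type helicase gene; nhl-2 (58.2, rank 112), a TRIM-NHL cofactor of microRNA silencing; the exosome genes exos-3 (46.3, rank 168) and exos-1 (29.9, rank 360); ifet-1 (43.4, rank 187), a translational repressor; and lsm-3 (30.2, rank 355). Of these, only nhl-2 had a top-ranked peak in all 3 replicates, at ranks 147, 137 and 88. By the best peak of each gene, cgh-1, exos-3 and lsm-3 were top-ranked in 2 replicates, ifet-1 in 1 and exos-1 in 0. The best ranks in replicates 1, 2 and 3 were 3959, 71 and 418 for ifet-1. They were 5376, 26185 and 1179 for exos-1. All 6 summits lay 525 to 1166 bp upstream of the decay gene, and for 5 of them the start of another protein-coding gene was nearer. The ifet-1 peak, for example, lay 243 bp from the start of the ribosomal protein gene rps-1, a neighbour named after its values were seen. The 1 whose own start was nearest was cgh-1, 760 bp away, at ranks 40, 64 and 684 in replicates 1, 2 and 3. With only peaks from 500 bp upstream to 100 bp downstream of a transcript start, 2 of the 8 CCR4-NOT genes and 0 of the 56 decay genes kept an optimal peak, against 1.98% of all genes. With a window of 500 bp, 1 of the 56 decay genes had one, against 2.76% of all genes, so 5 of the 6 lay more than 500 bp from the decay gene.

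The genes most like ntl-11, by the Euclidean distance over log10 of the best rank in the 3 replicate lists and leaving out genes that share its peaks, rested on 2 peaks. One was shared by rpl-15, a large ribosomal subunit protein gene, and K11H12.8 (distance 0.202; ranks 12, 9 and 17; pooled score 184.2). The other was shared by F25H2.4, ndk-1, which encodes a nucleoside diphosphate kinase, and F25H2.6 (distance 0.303; ranks 24, 15 and 31; pooled score 134.7).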

How the data were processed

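Peak lists of LIN-15B chromatin immunoprecipitation were taken as deposited, per the labels from whole L4 larvae in 3 biological replicates. Per the deposited descriptions, the authors called peaks for each replicate and for the pool, each against a control alignment, and kept the optimal list by irreproducible discovery rate; for the aligner, peak caller and cutoff nothing is given in the sources used here. The lists give the authors' score for each peak, used only to rank peaks within a list, and a further deposited column, used only as an alternative rank, which is taken as a −log10 q-value from its place in the narrowPeak layout because no header names it. Depth is unknown, so its precision could not be compared.

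Peaks of the ce11 lists were assigned to Ensembl release 115 genes (WBcel235) when any base lay in the gene or within 1000 bp. A replicate covers a pooled peak when one of its peaks contains the pooled summit; its strongest such peak is given. Distances to a start are to the annotated 5′ end of the gene. The motifs searched on both strands were the E2F-type element TTCCCGC, the CHR-type element TTTGAA and its variant TTCGAA, the E-box CACGTG, the core promoter word TATAAA, the repeat GAGAGA, the run TTTTTT, and the words CTGCGTCT and CGCGC. Repeated motifs can overlap themselves; none was counted more than once for a window. Sequence and the name fdx-2 are from RefSeq on the same assembly. Copies were aligned with biopython 1.88 and searched with blastn 2.17.0; Python 3.11.15, numpy 2.4.6, pandas 2.3.3 and matplotlib 3.10.9 were used, and peak assignment was tested on simulated peaks.

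The members, lists and motifs were chosen with earlier results of these data known, and no significance test was made. Named genes were the members, genes whose start lies within 1000 bp of the summit of a member's best peak (at most 2), decay genes with an optimal peak or a top-ranked peak in every replicate, and the 5 genes most like ntl-11. Beyond the label of biological replicate nothing says how the cultures were kept apart, so the SD may be partly technical. Alternatives were other windows, rank limits, ranking columns, the ce10 lists and leaving out each replicate.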

Additional observations from a re-analysis of the deposited data

How the results depend on the processing

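The depth behind the replicate scores and ranks is unknown, and a peak between divergent genes counted for both. Members with an optimal peak numbered 2 under every window and rank alternative tried and with each replicate left out (2 in each). The share of all genes with one ranged from 1.55% to 4.16%. Leaving out replicate 1, 2 or 3 only reduced the deposited optimal list, to 179, 176 and 162 peaks, and did not call it anew. The optimal peaks of ntl-11 and ntl-2 were top-ranked in all 3 replicates. Their staying in the reduced lists therefore adds no separate evidence. Members with a pooled peak numbered 4 with the promoter window only (ntl-11, ntl-2, ccf-1 and ccr-4), against 12.5% of all genes, and 5 when a peak went to the nearest start only, against 26.3%. The mean number with a top-ranked peak was 1.67 with the smaller number of top-ranked peaks, against 1.72% of all genes. With a replicate left out it was 2.5 to 3, against 3.12% to 3.2% of all genes in the single replicates. Decay genes with an optimal peak numbered 1 with a window of 500 bp, 0 with the promoter window and 1 with the nearest start only, against 2.76%, 1.98% and 1.71% of all genes, so none of the 3 rules left the list clearly above the background. The ntl-11 rank was 10 among nuclear peaks, 13 in both ce10 lists and 1 by the column taken as the −log10 q-value, a value shared by 16 peaks. By that column the order of the other member peaks changed in the pooled list. The ccr-4 peak past the gene end, which was not optimal, had 1.03. The optimal ntl-2 peak had 0.90 and the distal ntl-11 peak 0.82. The split into strong and weak genes therefore holds by score and not by that column. The difference in log10 rank was -2.45 to -2.09 with a replicate left out. G+C content at the proximal ntl-11 site was 49% in 100 bases, against 34.3% in 300 bases. The median over optimal peaks was 48% and 37.7% at these widths, and over other pooled peaks 36% and 35.7%. For the moved counts the rule itself counts fewer peaks. Counting a peak only when its summit lay within 1000 bp, an alternative chosen after seeing the data, gave 4 decay genes, against 3.13% of all genes. Replicate lists on ce10 were not matched.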
